A study of Homo sapiens with 4 samples.

Results

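The PRMT5 RIP-seq peak list of Jurkat cells held 2496 peaks that were the only peak of their gene, out of 18993 peaks in all (13.1%). A peak was taken where it carried 1 gene identifier, where that identifier stood in no other row of the list, and where its width lay between 26 and 5000 nt. The width limits left out 275 rows of 25 nt and 608 rows wider than 5000 nt among the 3379 that met the rest of the rule. The narrowest peak kept was 37 nt, with 0.30 RPM (reads scaled to library size) in PRMT5 RIP and 0.03 in input, and carried an identifier without a symbol here. The widest, in TMEM70, a mitochondrial protein needed for ATP synthase assembly, was 4993 nt, with 9.44 RPM in PRMT5 RIP and 2.84 in input. Just outside the limits, the 25-nt peaks had a median log2 ratio of RIP over input of 1.44, and the peaks over 5000 nt one of 1.08.

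Jurkat cells are an established human leukemic T cell line. According to the labels, both groups were stimulated with PHA, a lectin that activates T cells, for 48 hours and crosslinked with UV light of 264 nm at 400 mJ, while the study's methods give a shorter wavelength. RNA bound to PRMT5 was recovered by immunoprecipitation, with Flag according to the series' design text (the labels name no tagged construct), in 2 PRMT5 RIP libraries and was set beside 2 input libraries of the same cells, with no control immunoprecipitation among the 4 libraries. Libraries were pooled in the authors' list, which has 1 RPM for each group at each peak, so no spread between libraries and no test is given for any value below, and the depth of the libraries is unknown. Of 12 T cell markers, 10 had a named peak, including CD3D, CD3E, LCK and ZAP70. Among 5 B cell markers CD79A had peaks, with 15.4 and 21.9 RPM in input, and no myeloid, erythroid or epithelial marker had a named peak.

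PRMT5 is the main enzyme of symmetric arginine dimethylation and works in a complex with WDR77. Its best known substrates are the Sm proteins, which form the ring around spliceosomal snRNAs, and histone tails. In a RIP-seq experiment, RNA that stays with the immunoprecipitated protein is sequenced beside the starting RNA, and a peak marks a stretch of RNA with more reads after immunoprecipitation. A gene with a single peak therefore offers 1 stretch of its transcript, whose place in the gene can be read directly.

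The places of these peaks are shown first by sequence, because many of them began at the start of the gene. Of 1382 protein-coding members with a promoter in the RefSeq table of GRCh38.p14, the first 30 transcribed bases lay inside the peak for 228, and the 5′ edge of the peak lay a median of 75 nt after the start. The windows below run from 100 bases before the start to 30 bases after it, and the bases in capitals lie inside the peak. They belong to 6 genes of at least 5000 nt with high ratios among peaks that covered the start given in that table. All 6 had at least 1 RPM in input. Another window belongs to H2BC4, a histone H2B gene, and all were chosen after the values were seen. The 6 are not a full ranking, as LAPTM4B, named below, had a higher ratio at a peak over its gene's start and is not shown. UTP18, a factor of ribosomal RNA processing, had 13.5 RPM in PRMT5 RIP and 1.69 in input, and its window is chr17:51260446-51260575 on the plus strand. EDEM1, which helps to clear misfolded glycoproteins from the endoplasmic reticulum, had 11.5 and 2.0 RPM (chr3:5187607-5187736, plus strand), and an opposite-strand peak overlapped its peak. CHPT1, an enzyme of phosphatidylcholine synthesis, had 7.24 and 1.35 RPM (chr12:101697540-101697669, plus strand). DCK is the deoxycytidine kinase of nucleoside salvage, and had 12.5 and 2.40 RPM (chr4:70993549-70993678, plus strand). KIFBP, a kinesin-binding protein, had 7.24 and 1.42 RPM (chr10:68988703-68988832, plus strand), and ALDH5A1, the succinate semialdehyde dehydrogenase, had 7.36 and 1.48 RPM (chr6:24494869-24494998, plus strand). H2BC4 had 3098 and 1459 RPM (chr6:26123897-26124026, minus strand). The peaks of UTP18, EDEM1, CHPT1, KIFBP and H2BC4 began exactly at the annotated start, while those of DCK and ALDH5A1 began 11 and 2 bases before it. Edges here and below are those of the peak list, where the width was a multiple of 25 nt at 1418 members (56.8%). They are not measured ends of the RNA.
UTP18: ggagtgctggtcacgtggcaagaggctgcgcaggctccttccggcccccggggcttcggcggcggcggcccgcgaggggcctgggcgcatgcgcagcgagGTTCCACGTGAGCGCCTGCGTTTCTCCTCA
EDEM1: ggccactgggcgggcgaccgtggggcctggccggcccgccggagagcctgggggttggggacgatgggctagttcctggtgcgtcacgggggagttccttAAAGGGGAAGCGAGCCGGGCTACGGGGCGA
CHPT1: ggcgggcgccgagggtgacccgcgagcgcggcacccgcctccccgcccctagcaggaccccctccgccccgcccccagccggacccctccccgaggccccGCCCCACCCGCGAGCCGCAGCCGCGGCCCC
DCK: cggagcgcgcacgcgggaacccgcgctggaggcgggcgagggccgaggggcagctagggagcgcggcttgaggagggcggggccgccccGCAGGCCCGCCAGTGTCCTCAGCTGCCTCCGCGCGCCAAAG
KIFBP: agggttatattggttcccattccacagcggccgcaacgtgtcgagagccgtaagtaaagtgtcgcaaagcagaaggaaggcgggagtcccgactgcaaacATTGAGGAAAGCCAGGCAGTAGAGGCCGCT
ALDH5A1: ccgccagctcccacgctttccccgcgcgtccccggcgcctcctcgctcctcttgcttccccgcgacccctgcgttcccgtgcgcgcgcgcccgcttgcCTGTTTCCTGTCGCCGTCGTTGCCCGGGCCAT
H2BC4: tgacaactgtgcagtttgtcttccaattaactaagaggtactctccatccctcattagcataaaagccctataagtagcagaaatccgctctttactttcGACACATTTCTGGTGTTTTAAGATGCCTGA

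Of the first 30 transcribed bases shown, CHPT1 had 90% G or C, EDEM1 70%, DCK and ALDH5A1 66.7% each, UTP18 60%, KIFBP 56.7% and H2BC4 40%. Over the protein-coding members, the 50 bases after the start had a median of 68% G or C, the same as in genes with several peaks, while the median over all 27326 promoters of the table was 60%. Short motifs were searched on both strands of the 300-base windows, each on its own: TATAAA for the TATA box, CCAAT for the box of that name and GGGCGG for the GC box. GGGCGG stood in 71.3% of the members' promoters, in 74.3% of those of genes with several peaks and in 44.6% of all promoters. TATAAA stood in 8.68%, 4.94% and 11.9%, and CCAAT in 38.2%, 39.0% and 35.7%. The 54 histone promoters among the members differed from the other members in these letters: TATAAA stood in 64.8% and CCAAT in 83.3% of them, but GGGCGG in 29.6%. Without the histone genes, TATAAA stood in 6.40% of the members' promoters.

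A second set of sequences belongs to the miRNA genes, which are short enough for a peak to equal the hairpin. There were 6 members named as miRNA genes, of which 4 had a sequence in the RefSeq table. The peaks of all 4 copies of MIR6724 had the bounds of the 92-nt hairpin, at chr21:8432530-8432621 for MIR6724-4 and at chr21:8249505-8249596 for MIR6724-2, both on the plus strand. The hairpin of these copies was the same in the table, and is shown with the mature part in capitals. The mature sequences of the 3 families are shown with the seed, bases 2 to 8, in capitals, to show that no seed was shared.
MIR6724-4 hairpin: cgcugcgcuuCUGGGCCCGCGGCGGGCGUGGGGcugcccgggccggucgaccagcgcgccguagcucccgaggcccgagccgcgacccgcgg
miR-6724-5p: cUGGGCCCgcggcgggcgugggg
miR-3648: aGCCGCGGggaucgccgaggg
miR-3661: uGACCUGGgacucggacagcug

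Of these genes, MIR6724-4 had 3327 RPM in PRMT5 RIP and 635 in input, and MIR6724-1 had 3198 and 488. MIR6724-3 had 2118 and 528 RPM, and MIR6724-2 had 2.0 and 0.67. Thus copies of 1 hairpin had pooled RPM values far apart within each group, and reads of near-identical copies cannot be assigned with certainty. These genes stand on chromosome 21 among the repeats of ribosomal DNA, and a peak of 61 nt in the 45S pre-ribosomal RNA gene RNA45SN2 had 3205 RPM in PRMT5 RIP and 491 in input. MIR3648-2 had 16.3 and 3.56 RPM, and MIR3661, which lies outside the ribosomal DNA on chromosome 5, had 5.61 and 1.37, beside an overlapping opposite-strand peak. The log2 ratio of RIP over input was between 1.56 and 2.71 in all 6. RIP-seq reads over a hairpin do not tell the mature miRNA from its precursor, and peak edges at its bounds are not measured ends of the RNA.

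Across the 2496 peaks, the median was 2.07 RPM in PRMT5 RIP and 0.67 in input, with quartiles of 0.77 and 7.16 in the former and of 0.22 and 2.85 in the latter. The log2 ratio, taken with 0.01 RPM added to both values, had a median of 1.49, a ratio of 2.81-fold, with quartiles of 1.00 and 2.04. PRMT5 RIP was at least 2-fold over input at 1870 of these peaks (74.9%), against 55.7% of all peaks of the list. RIP was below input at 37 (1.48%), against 3.84% of all peaks. Peaks of genes with several peaks, chosen by the same limits on identifier and width, numbered 10029 and had a median of 1.11, with 55.9% at least 2-fold over input. The 5′-most of these peaks were taken, here and below, only in genes with at least 2 peaks within the limits, and numbered 3035. They were close to the single peaks, with a median of 1.40 and 69.5% at least 2-fold. The gap of 0.38 to all 10029 peaks was thus 0.084 to the 5′-most ones. Over named protein-coding genes, the highest ratio within a gene of several peaks had a median of 1.54, against 1.58 in single-peak genes. The 3655 genes of several peaks in this comparison include genes with only 1 peak within the limits. The list was made by a peak caller that compared PRMT5 RIP with input, so a ratio above 0 is in part a condition of being listed.

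**Figure D1:**
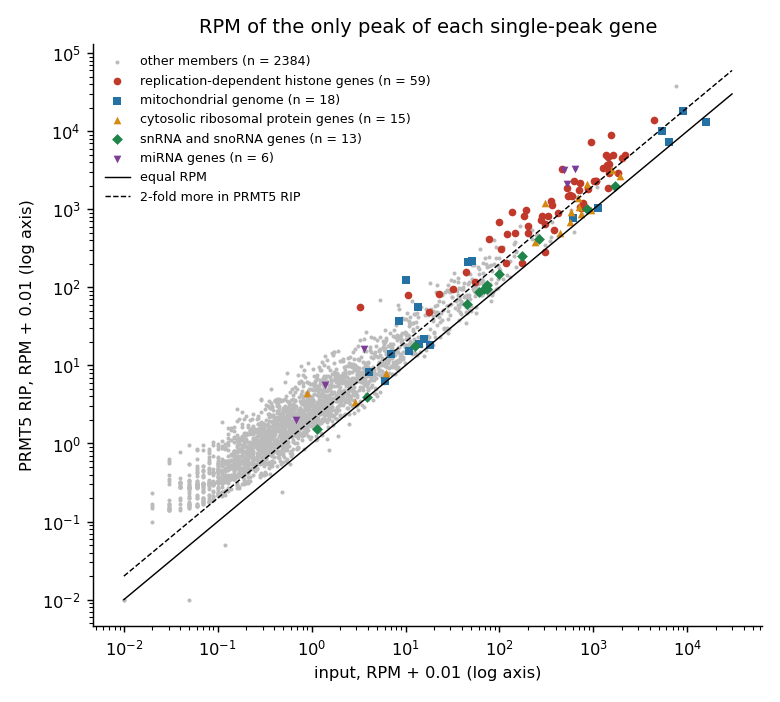
RPM of each single-peak gene's only peak in PRMT5 RIP (vertical) against input (horizontal), both with 0.01 added and on log axes. Each point is 1 of 2496 peaks, with 5 groups coloured, and 1870 points lie on or above the dashed line of 2-fold. snRNA and snoRNA genes all lie between the lines of equal RPM and of 2-fold.

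**Figure D2:**
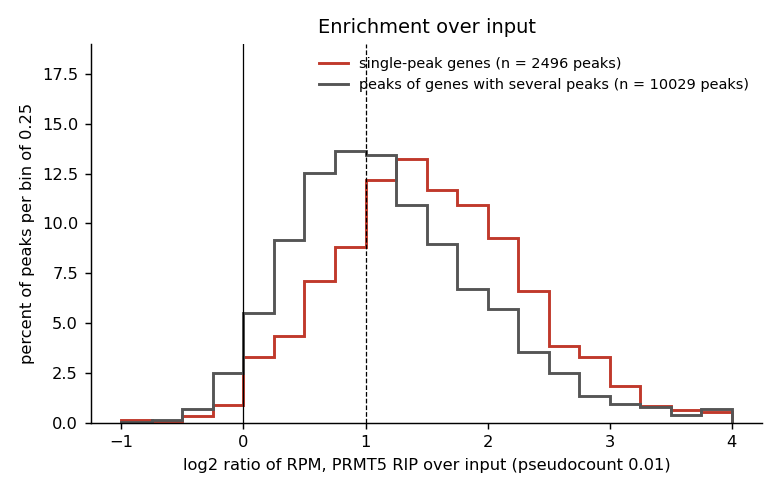
Distribution of the log2 ratio of RPM in PRMT5 RIP over input, in bins of 0.25, for the 2496 peaks of single-peak genes and the 10029 peaks of genes with several peaks, as percent of each set. Values outside the axis are counted in the outermost bins. The medians are 1.49 and 1.11, and the 5′-most peaks of the genes with several peaks, not drawn on their own, have 1.40.

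The ratio was higher where input was lower, in both sets. This relation is in part built in, as input is the divisor of the ratio and the list holds peaks called against input. Among members with under 0.25 RPM in input, 673 in number, the median log2 ratio was 1.93, against 1.77 in peaks of genes with several peaks. At 0.25 to 1 RPM it was 1.63 against 1.20, at 1 to 10 RPM 1.14 against 0.86, and at 10 RPM and above 0.99 against 0.55. The members had the higher median in each class of input, by between 0.16 and 0.44. By width, the medians of the members were 1.67 under 100 nt, 1.63 from 100 nt, 1.57 from 300 nt and 1.25 from 1000 nt, and those of the other set lay between 0.97 and 1.21. Input was under 0.1 RPM at 280 members, where rounding to 0.01 RPM is a large part of the value. PHACTR2, a regulator of protein phosphatase 1, had 0.00 RPM in PRMT5 RIP and 0.04 in input, the lowest ratio of all members.

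In long protein-coding genes, most single peaks lay at the 5′ end. In 1358 named protein-coding genes of at least 5000 nt, the centre of the only peak stood at a median of 2.23% of the gene's length, and its 5′ edge a median of 150 nt from the 5′ end of the gene. The peak began within the first 1000 nt in 925 of them (68.1%), against 31.8% of 7526 peaks of genes with several peaks. Its centre lay in the first 10% of the gene in 887 (65.3%), against 29.8%, and in the last 10% in 81 (5.96%), against 19.1%. The 5′-most peaks of genes with several peaks, 2238 in number, had a median position of 5.15%, near that of the single peaks, and the 3′-most peaks one of 80.6%. Over all 2002 named members, short and noncoding genes included, the median position was 9.56%, against 45.4% for named peaks of genes with several peaks, and with at least 0.5 RPM in input it lay at a fraction of 0.155 of the gene. Gene bounds are those of RefSeq and include introns, so that the first 10% of a long gene is often its first exon and intron.

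**Figure D3:**
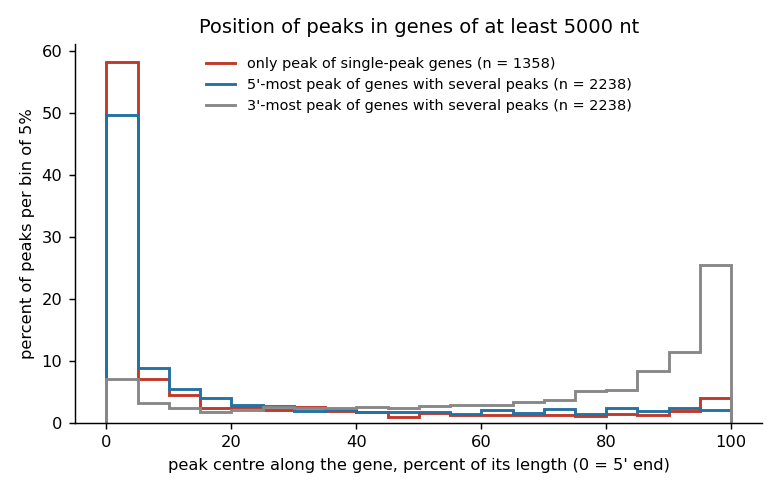
Position of the peak centre along genes of at least 5000 nt, in percent of the gene's length from the 5′ end, as percent of the peaks in bins of 5%. The only peaks of single-peak genes (n = 1358) fall in the first bin in 58.2%, the 5′-most peaks of genes with several peaks (n = 2238) in 49.7%, and the 3′-most peaks in 7.06%.

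Among the peaks that began at most 50 nt after the gene's 5′ end with at least 1 RPM in input, those with the highest ratios were led by LAPTM4B, a lysosomal membrane protein, with 11.02 RPM in PRMT5 RIP and 1.28 in input. E2F1, a transcription factor that drives entry into S phase, had 9.50 and 1.18 RPM at a peak of 325 nt. CMAS, which activates sialic acid for glycosylation, had 8.63 and 1.25 RPM, and EXOSC3, a subunit of the RNA exosome, had 7.44 and 1.14. These 3 peaks began 15, 25 and 41 nt after the 5′ end of genes of 10909, 19451 and 5379 nt, and had log2 ratios of 3.0, 2.78 and 2.70. UTP18, whose promoter is shown above, had 2.99.

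The ratio was highest at the 5′ end in both sets, and the gap between them differed along the gene. In the first 2% of the gene, the median log2 ratio was 1.79 at 659 single peaks and 1.67 at 1302 other peaks. At 2% to 10% it was 1.51 against 1.39, and at 10% to 30% 1.45 against 1.11. From 30% to 50% and from 50% to 70% the single peaks had 1.53 and 1.57, and the other peaks 0.94 and 0.91. At 70% to 90% the single peaks had their lowest median, 1.30, against 0.93. In the last 10% the values were 1.48 at 81 single peaks and 0.89 at 1441 others. The gap was thus 0.12 in the first 2%, 0.66 at 50% to 70%, 0.37 at 70% to 90% and 0.59 in the last 10%. Past the first 10% of the gene it was present in each class of input, as 1.81 against 1.63 under 0.25 RPM, 1.49 against 1.02 at 0.25 to 1 RPM, 1.08 against 0.74 at 1 to 10 RPM, and 0.95 against 0.46 at 10 RPM and above. Within the first 10% it was 1.73 against 1.55 over all peaks, and by class of input 2.0 against 2.01, 1.79 against 1.56, 1.31 against 1.20 and 1.10 against 0.67, the last with 14 single peaks. Single-peak genes were longer than protein-coding genes with several peaks, with a median length of 28685 nt against 20182 nt. They had less RPM in input summed over all their peaks, with medians of 0.61 and 2.66. These sums cover unlike stretches, with medians of 350 and 1264 nt in peaks. The part of these differences in the result was not tested.

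**Figure D4:**
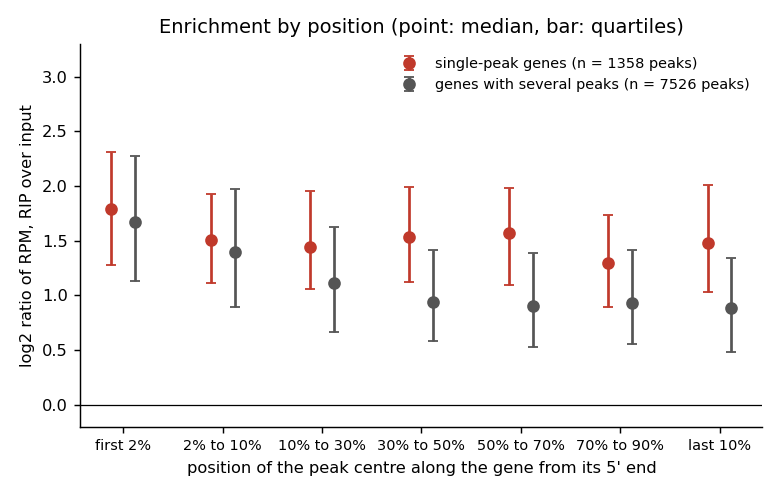
Median log2 ratio of RPM in PRMT5 RIP over input (points) with quartiles (bars), by the position of the peak centre along genes of at least 5000 nt. Single-peak genes (1358 peaks) have 1.79 in the first 2%, 1.30 at 70% to 90% and 1.48 in the last 10%, and genes with several peaks (7526 peaks) have 1.67, 0.93 and 0.89.

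The single-peak genes with the most RPM in PRMT5 RIP were of 3 kinds, although RPM per peak is not scaled to length. RMRP, the RNA of RNase MRP, which processes pre-ribosomal RNA, had 37999 RPM in PRMT5 RIP and 7524 in input, 5.05-fold, at a peak of 264 nt that covered nearly the whole RNA. CYTB, the mitochondrial cytochrome b gene, had 18287 and 9042 RPM. The linker histone gene H1-5 had 13724 and 4434 RPM. COX2, which encodes a subunit of cytochrome c oxidase in the mitochondrial genome, had 13083 RPM in PRMT5 RIP and more in input, 15939. ND1, a mitochondrial subunit of complex I, had 10043 and 5384 RPM. These peaks weighed on sums: all members held 38.5% of the RPM of the list in PRMT5 RIP and 25.9% in input, and without these 5 peaks 26.2% and 17.3%.

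The mitochondrial genome gave 18 members, and its named tRNAs differed by strand. The 5 named tRNA genes on the minus strand had log2 ratios of 2.05 to 3.59. All 5 were at least 2-fold over input, against 78.5% of all named members. Of these, the alanine tRNA had 123.1 RPM in PRMT5 RIP and 10.2 in input, 12.1-fold, the asparagine tRNA (TRNN) had 214 and 46.2, and the serine tRNA TRNS1 had 219 and 51.5. The proline tRNA (TRNP) had 56.3 and 13.6 RPM, and the glutamate tRNA (TRNE) 36.7 and 8.60. On the plus strand the 5 named tRNAs ran from -0.03 to 1.01, and 1 of them reached 2-fold. There the methionine tRNA (TRNM) had 17.99 RPM in PRMT5 RIP and 18.3 in input, and the tryptophan tRNA (TRNW) 8.28 and 4.11. The named tRNAs of the strands did not overlap in ratio. Beside them, 2 peaks of 69 and 72 nt without a symbol here, on the plus and the minus strand, overlapped each other and had log2 ratios of 0.48 and 1.01, so that this minus-strand peak lay with the plus-strand tRNAs. ND6, a protein gene on the minus strand, did not share the level of the tRNAs beside it, with 1038 RPM in PRMT5 RIP and 1130 in input. ND2 and ND3, on the plus strand, had log2 ratios of 0.20 and 0.36.

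Spliceosomal snRNAs, which are held by Sm proteins, were near input by RPM. All 10 single-peak snRNA genes, which are copies of U1, U4 and U5, had log2 ratios of 0.03 to 0.58. None reached 2-fold in RPM, against 78.5% of all named members. RNU1-1 had 2013 RPM in PRMT5 RIP and 1716 in input, RNU4-2 had 95.5 and 68.3, and RNU5A-1 had 17.9 and 12.7. U1 copies are near-identical, and their reads cannot be assigned with certainty. The U3 snoRNA gene SNORD3A, which serves ribosomal RNA processing, had 414 and 264 RPM. SNORD3B-2 had 108 and 74.4, and SNORA11F had 1.52 and 1.12, so that no snoRNA reached 2-fold in RPM either. By the peak caller's log2 fold change, whose median over all members was 2.36, these snoRNAs had 1.77, 1.57 and 1.17. By that measure RNU1-1, RNU4-2 and RNU5A-1 had 0.89, 1.33 and 1.25, and RMRP had 3.41. RMRP therefore stood apart from the other small nuclear and nucleolar RNAs of the set in these values. LSM10, which replaces an Sm protein in the U7 snRNP of histone mRNA processing, had 43.8 RPM in PRMT5 RIP and 29.8 in input. It was the only member among 24 genes with a peak in a list of PRMT5 complex, Sm, LSm and SMN complex genes (4.17%, against 29.6% of all named genes).

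Replication-dependent histone genes have no introns and mRNAs without poly(A) tails, and were single-peak genes almost without exception. Of 61 with a peak, 59 were members, whereas 29.6% of all named genes were. PRMT5 RIP was at least 2-fold over input at 48 of the 59, against 78.5% of all named members, and below input at 1. The median log2 ratio was 1.43, against 1.56 over all named members. The linker histone genes were the highest class, with 4 members between 1.63 and 2.98. H1-4 had 7369 RPM in PRMT5 RIP and 935 in input, and H1-2 had 9052 and 1548. H2A genes had a median of 1.63 over 15 members, H2B genes 1.45 over 15 and H4 genes 1.39 over 14. The 11 H3 genes had the lowest median, 0.97, and 5 of them reached 2-fold. Values still ranged widely within a class.

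Within H3, H3C1 had 285 RPM in PRMT5 RIP and 303 in input, the 1 histone gene below input by RPM, and H3C13 had 1512 and 560.1. The peak caller's log2 fold change at H3C1 was 0.82. Within H2B, H2BC6 had 56.2 and 3.3 RPM, a 17-fold ratio and the highest of all members with at least 1 RPM in input, while H2BC7 had 1192 and 768. H4C16 had 79.4 and 10.7 RPM, and H4C4 had 1023 and 732. H2BC6, H4C16 and H2BC3, with 48.8 and 17.9 RPM, were the 3 histone members with the least RPM in PRMT5 RIP, and their log2 ratios were 4.09, 2.89 and 1.45. Copies such as H3C14 and H3C15, with log2 ratios of 1.18 and 1.17, and H4C14 and H4C15, with 1.10 and 1.11, are near-identical in sequence, so that counting could have split their reads.

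Genes for the cytosolic ribosome and their paralogs gave 15 single-peak genes of 66 with a peak (22.7%, against 29.6% of all named genes). The 15 had a median log2 ratio of 0.58, against 1.56 over all named members. At least 2-fold was reached by 4 of them, against 78.5% of all named members. RPL41 had 3159 RPM in PRMT5 RIP and 1597 in input, RPS25 had 2697 and 1915, and RPS4X, at the low end, had 990.1 and 952. RPS27, at 1190.03 and 307 RPM, and RPL6, at 2125 and 847, were among the 4. Low RPM stood at 3 genes, RPL34 (3.38 and 2.86), RPL22L1 (8.05 and 6.12) and RPL7L1 (4.46 and 0.88), of which RPL7L1 had the highest ratio of the list, 2.33. In the same list, the peaks of genes with several peaks had a median of 0.80. Mitochondrial ribosomal protein genes had a median of 1.16 over 18 members, of which 10 reached 2-fold, against 78.5% of all named members. MRPS34, a small subunit protein, had 313 and 62.3 RPM beside an overlapping opposite-strand peak, and MRPS26 had 93.8 and 27.3 without one, while MRPL57 had 128 and 97.5.

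The list of nuclear genes of the respiratory chain had a median of 1.02 over 10 members. The 10 include UQCRFS1P1, whose name is that of a pseudogene, so the median is not of respiratory chain genes alone. The ratio of UQCRFS1P1 lay above this median, beside an opposite-strand peak. The ATP synthase subunit gene ATP5F1D had 326 RPM in PRMT5 RIP and 109 in input, COX5B of complex IV had 236 and 100.1, and COX7A2 of the same complex had 18.5 and 19.4. Of the aminoacyl-tRNA synthetases, which charge tRNAs with amino acids, 6 of 24 with a peak were members (25%, against 29.6% of all named genes). At least 2-fold was reached by 4 of these 6, against 78.5% of all named members. IARS2, the mitochondrial isoleucine enzyme, had 3.98 and 1.45 RPM, at a peak that began 25 nt after the gene's start, and IARS1, its cytosolic counterpart, had 1.11 and 0.77 at a peak that began 25482 nt into it.

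Of 39 genes of T cell receptor signalling with a peak, 10 were single-peak genes (25.6%, against 29.6% of all named genes). PRMT5 RIP was at least 2-fold over input at 6 of them, against 78.5% of all named members. The 39, the 10 and the 6 all include PDK1, a symbol that names pyruvate dehydrogenase kinase 1, a metabolic enzyme outside this pathway. It had 2.04 and 0.40 RPM beside an opposite-strand peak. CD3D, a subunit of the receptor complex, had by far the most RPM, 453 in PRMT5 RIP and 417 in input, at a peak of 3630 nt that covered nearly the whole gene. FYB1, an adaptor of the receptor, had 7.77 and 5.68 RPM, and DGKA, which removes diacylglycerol, had 0.42 and 0.31. Higher ratios belonged to peaks of little RPM. NFATC3, a transcription factor released by calcium signals, had 3.64 and 2.05 RPM, CHUK, a kinase of the NF-κB pathway, had 2.34 and 0.97, and CBL, a ubiquitin ligase that limits signalling, had 1.12 and 0.32. PIK3R1, the regulatory subunit of PI3 kinase, had 0.82 and 0.12 RPM, and NFKB1, with 0.59 and 0.02, had the highest ratio of the list on 2 rounding steps in input.

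Cytokine and receptor genes gave 6 members of 16 with a peak (37.5%, against 29.6% of all named genes). At least 2-fold was reached by 5 of the 6, against 78.5% of all named members. IL6ST, the shared signalling subunit of the IL-6 receptor family, had 51.2 RPM in PRMT5 RIP and 47.9 in input, at a peak that began 47453 nt into the gene and overlapped an opposite-strand peak. TNFSF9, the ligand of 4-1BB, had 12.8 and 5.03 RPM, IL23A, a subunit of interleukin 23, had 1.66 and 0.57, and IL17RA, the interleukin 17 receptor, had 1.55 and 0.65. IFNAR1, a chain of the type I interferon receptor, had 0.95 and 0.18 RPM and a log2 ratio of 2.34, beside an opposite-strand peak. IL18BP, a secreted inhibitor of interleukin 18, had 1.53 and 0.47, also beside one.

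Zinc finger genes, most of which encode transcription factors, gave 32 members (31.7% of those with a peak, near the 29.6% of all named genes), with a median of 1.78. At least 2-fold was reached by 26 of them, against 78.5% of all named members. ZNF609 had 20.95 RPM in PRMT5 RIP and 9.20 in input, and ZNF24 had 6.88 and 1.85. ZNF500 was listed at 0.00 RPM in both groups. Of the solute carrier genes, which move metabolites across membranes, 27 of 93 were members (29.0%, against 29.6% of all named genes), with a median of 1.48. SLC25A11, the mitochondrial oxoglutarate carrier, had 65.1 and 38.7 RPM, SLC4A7, a bicarbonate cotransporter, had 6.58 and 1.95, and SLC23A1, a vitamin C transporter, had 0.04 and 0.11. The 3 receptor genes GPR137B, ADGRA3 and GPR107 had log2 ratios of 1.89, 2.34 and 3.03 at peaks that began 25, 44 and 20 nt after the gene's start, with 0.48 RPM or less in input. MED12L, the 1 mediator gene among the members, had 0.19 and 0.07 RPM.

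**Figure D5:**
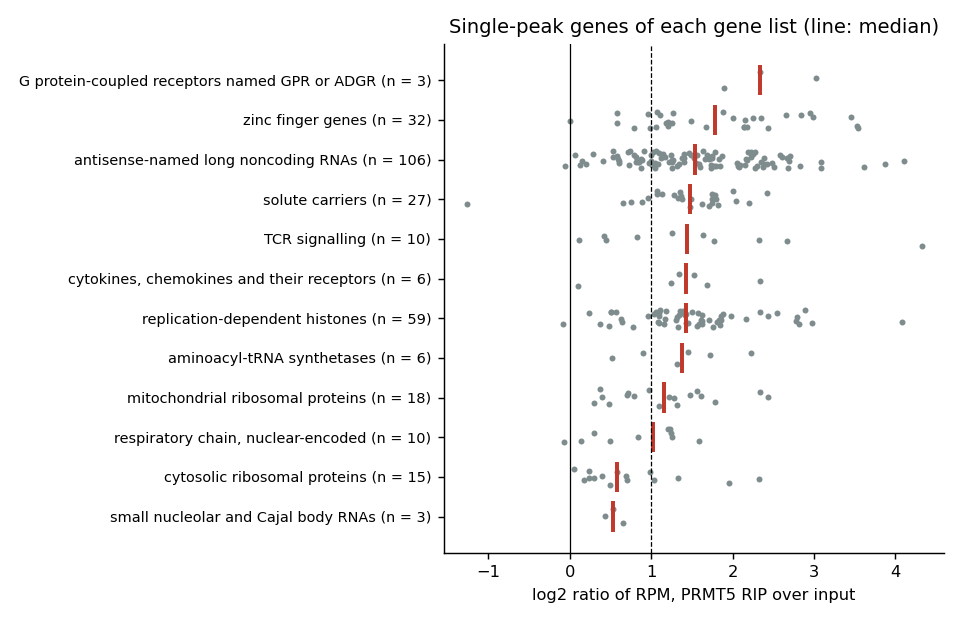
Log2 ratio of RPM in PRMT5 RIP over input for each single-peak gene (points) of the 12 gene lists with at least 3 members, and the median of each list (red lines). The dashed line marks 2-fold. Medians run from 0.54 for snoRNA genes and 0.58 for cytosolic ribosomal proteins to 1.78 for zinc finger genes and 2.34 for 3 G protein-coupled receptors.

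Among the 2002 named members, 1639 were protein-coding, with a median log2 ratio of 1.58, and 204 were long noncoding RNAs, with a median of 1.64. Their counterparts in genes with several peaks had 1.10 and 1.17. The 106 members of the RefSeq class pseudogene had a median of 0.93, and those with several peaks one of 0.96, while the 20 of the class transcribed pseudogene had 1.92 and 1.25. NORAD, a long noncoding RNA that binds Pumilio proteins, had 41.9 RPM in PRMT5 RIP and 11.1 in input. Genes named as antisense RNAs gave 106 members of 207 with a peak (51.2%, against 29.6% of all named genes). An opposite-strand peak overlapped 88 of them, with a median of 1.39, and 18 did not, with a median of 1.83. Among the former, H1-10-AS1 had 67.6 and 11.8 RPM, NDUFB2-AS1 had 38.6 and 8.53, and MADCAM1-AS1 had 27.2 and 3.82. Whether the counting used strand is not given in the sources used here, so reads of such pairs cannot be told apart. Transcripts named as divergent (-DT), which start beside a protein gene on the other strand, numbered 37, with a median of 1.71.

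Ribosomal protein pseudogenes, which share sequence with highly expressed mRNAs, numbered 62 of 126 pseudogenes of both kinds and had a median of 0.87, against 1.35 over the other 64. RPS2P5 had 325 RPM in PRMT5 RIP and 92.5 in input, beside an opposite-strand peak, RPL24P4 had 206 and 66.4, and RPL6P10 had 13.0 and 1.39. The 7SK pseudogene RN7SKP203 had 506 and 623 RPM, below input. Reads of a pseudogene and its parent gene can be exchanged in alignment, so these values are uncertain.

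Over all classes, the members with the highest ratio at 1 RPM or more in input were H2BC6, an identifier without a symbol here, the mitochondrial alanine tRNA, RPL6P10 and HSPH1. HSPH1, a heat shock protein that exchanges nucleotides on HSP70, had 8.94 RPM in PRMT5 RIP and 1.02 in input, 8.76-fold, at a peak of 400 nt that began 478 nt into a gene of 27416 nt. At the low end stood STAU2, a protein that binds double-stranded RNA, with 0.81 and 1.52 RPM, and LRRC8D, a subunit of volume-regulated anion channels, with 1.25 and 1.90, both at peaks within 250 nt of the gene's start, followed by 3 identifiers without a symbol.

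An overlapping peak on the opposite strand was found at 697 members (27.9%), against 16.9% of peaks of genes with several peaks. Members with such an overlap had a median log2 ratio of 1.26, and the 1799 without it 1.58. Unnamed members numbered 494, and 67.8% of them overlapped an opposite-strand peak, with a median ratio of 1.21 over all 494. Peaks that covered their whole gene numbered 50, with a median of 1.18 and a median width of 440.5 nt. Those over the gene's start numbered 267, with a median of 1.30, those inside it 1650, with 1.63, and those over its end 35, with 1.49.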

How the data were processed

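The authors sequenced 2 PRMT5 RIP and 2 input libraries of Jurkat cells and deposited 1 peak list. The submitters' processing notes name fastp, HISAT2 and hg38, while the peak caller, the annotation and the way libraries were pooled are not given in the sources used here. The authors deposited 1 pooled RPM value per group and peak, rounded to 0.01, and the peak caller's log2 fold change and adjusted p-value (FDR), which served as alternatives only. Whole reads and depth could not be recovered from the rounded values, so no interval or floor is given.

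From these, the log2 ratio of RPM was computed with a pseudocount of 0.01. Positions are given counting from 1. Identifiers were matched to RefSeq genes of GRCh38.p14 through names in a supplementary table (211 members) or through the 1 gene touched on the same strand (1791 members). Of 737 identifiers named both ways, 735 had the same name. The members and gene lists were chosen with earlier results of these data known. Genes were named by fixed ranks: the 5 with the most RPM in RIP, the 5 highest and 5 lowest ratios at 1 RPM or more in input, the narrowest and widest, and up to 4 per gene list, class of position and biotype by RPM in RIP. Other members named, among them the ends of lists, the histone and mitochondrial genes and the genes at the 5′ end, were picked with their values in view. The rule for members, opposite-strand overlap, the log2 ratio and positions in genes were tested on simulated data, and the other steps were not. The software was Python 3.11.15, pandas 2.3.3, numpy 2.4.6, scipy 1.17.1 and matplotlib 3.10.9. Alternatives covered width, identifiers, FDR, input, pseudocount, measure of enrichment, opposite-strand overlap and gene length.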

Additional observations from a re-analysis of the deposited data

How the results depend on the processing

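No paired analysis was possible because the list holds 1 pooled value for each group, although the labels number both groups 1 and 2, and for the same reason no library could be left out. Of the number of members, 2496, the alternatives gave 3379 without a width limit, 2488 at 50 to 5000 nt, 2765 where only the first-listed identifier counted and 2589 at an FDR of 0.01 or below, and 1427 with at least 0.5 RPM in input.

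The median log2 ratio of 1.49 became 1.28 with a pseudocount of 0.1, 0.67 with 1, 1.21 with at least 0.5 RPM in input, 2.36 with the peak caller's log2 fold change, 1.58 without opposite-strand overlap and 1.59 at 100 to 1000 nt. Under the same settings, the share at least 2-fold over input, 74.9%, became 66.9%, 27.8%, 62.3%, 96.5%, 78.9% and 77.5%. The gap of 0.38 to peaks of genes with several peaks became 0.31, 0.16, 0.34, 0.43 and 0.48 under the first 5 of them. Against the 5′-most peaks only, an alternative chosen after seeing the data, it was 0.084. The cause was not tested. Leaving out the histone and mitochondrial genes, also chosen afterwards, gave 1.49, 74.99% and 0.38.

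The median relative position, 0.0956 of the gene over all named members (0 at the 5′ end, 1 at the 3′ end), was 0.0245 in genes of at least 5000 nt, 0.155 with at least 0.5 RPM in input, and 0.00511 by the 5′ edge in place of the centre. No median or gap changed its sign under these alternatives. Some single peaks did with the peak caller's log2 fold change. H3C1, COX2, ND6, RN7SKP203, STAU2 and LRRC8D, all below input by RPM, had 0.82, 0.54, 0.69, 0.53, 0.94 and 1.57 by that measure. Rounded RPM values limit the precision most where input is lowest.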
